A study of Mus musculus with 2 samples.

Results

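The genes of MHC class I antigen presentation followed here were H2-K1, H2-D1, B2m, Tap1, Tap2, Tapbp and Nlrc5. They were chosen by symbol, and all 7 were found among the 32285 genes of both count matrices. Their RNA was followed in endothelial cells (ECs) of mouse lung by vessel type, and in melanoma cells that had lodged in the same lungs. Wild-type C57BL/6 mice received either PBS (control) or 400000 B16-F10 cells, a mouse skin melanoma line, in 100 µl through the tail vein, and lungs were taken after 6 h. Cells positive for Pecam1 and negative for Ptprc were sorted, and melanoma cells stained with a green tracker dye were added from the injected lungs. The labels give 2 mice per treatment, while the study's methods give another number, and the cells of a treatment went into a single 10x library. Each group therefore had 1 library and no replicate error, no test was run, and all intervals below are 95% intervals that cover counting error only.

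Class I molecules show short peptides from inside the cell to CD8 T cells. A heavy chain, H2-K1 or H2-D1 in these mice, pairs with the light chain B2m in the endoplasmic reticulum. Tap1 and Tap2 form the transporter that brings peptides into that compartment, Tapbp (tapasin) bridges the transporter and the empty heavy chain, and Nlrc5 is a transactivator of class I genes. Nlrc5 acts through proteins bound to a promoter module of neighbouring boxes, and interferon and NF-kB signals also act on heavy chain promoters.

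The genes lie at the following places in GRCm38, all of them protein-coding. H2-K1 (ENSMUSG00000061232) spans chr17:33996017-34000347 on the minus strand. On the plus strand of the same chromosome lie Tapbp (ENSMUSG00000024308) at chr17:33915899-33929292, Tap1 (ENSMUSG00000037321) at chr17:34187553-34197225, Tap2 (ENSMUSG00000024339) at chr17:34203527-34216321 and H2-D1 (ENSMUSG00000073411) at chr17:35262730-35267499. B2m (ENSMUSG00000060802) lies at chr2:122147686-122153083 and Nlrc5 (ENSMUSG00000074151) at chr8:94434356-94527272, both on the plus strand. H2-K1 and H2-D1 are alike in sequence, so reads could have been split between them. Tapbp overlaps Zbtb22 on the same strand, so reads of this pair may not be told apart. B2m overlaps Patl2 and Tap1 overlaps Psmb9 on the opposite strand. Their reads can be told apart only if strand was used in counting, which the sources used here do not state.

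Promoter sequence is shown for the genes that hold 2 boxes of this kind at a fixed spacing, because Nlrc5 acts through such a module. The letters searched were TGACG, any 20 bases, then ATTGG, on both strands of the 250 bases before each RefSeq start site (GRCm38.p6). These letters were chosen after the sequences had been seen. They were found in 26 of 27025 genes (0.0962%), among them 3 of the 5 genes of interest in the table, H2-K1, H2-D1 and B2m. Tap1 and Tapbp did not hold these letters at this spacing in this window. Of the 38 other pathway genes in the table, H2-M3, a class I heavy chain, was the only holder at this spacing. Each box alone was common, with TGACG in 19.8% and ATTGG in 37.5% of the 27025 genes. Tap1 held both boxes in the window, but not in this arrangement. So did other pathway genes, among them the heavy chains H2-Q4, H2-Q7 and H2-T22. The capitals below mark the 2 boxes, read in the direction of the gene.
H2-K1: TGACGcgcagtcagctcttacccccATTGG
H2-D1: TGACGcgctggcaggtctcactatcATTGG
B2m: TGACGacctccggatctgagtccggATTGG
H2-M3: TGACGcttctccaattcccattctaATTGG
These lie at chr17:34000359-34000388 on the minus strand, chr17:35262993-35263022, chr2:122147609-122147638 and chr17:37270188-37270217 on the plus strand, in that order. The H2-D1 module lies in the first exon of a longer annotated H2-D1 transcript. The modules of H2-K1 and H2-D1 shared 23 of 30 bases, while that of B2m shared 13 with H2-K1 and 12 with H2-D1. That of H2-M3 shared 17 with H2-K1, 19 with H2-D1 and 15 with B2m. The capitals alone account for 10 shared bases in each pair.

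The heavy chain promoters held 2 further motifs upstream of the module. GGGGATTCC, a site of the NF-kB type, was found in 69 of 27025 genes (0.255%), and GAANNGAAA, a core of interferon-stimulated elements, in 1974 (7.30%). H2-K1 and H2-D1 held both, and B2m, Tap1 and Tapbp held neither in this window. The stretch of H2-K1 from the first motif to the end of the module, chr17:34000359-34000458 on the minus strand, is shown because the signals named above meet there. Its capitals mark, from left to right, GGGGATTCC, GAANNGAAA on the other strand, and the 2 boxes.
H2-K1: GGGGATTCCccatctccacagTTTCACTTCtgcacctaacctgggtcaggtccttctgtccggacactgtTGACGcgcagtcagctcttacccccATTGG
The same stretch of H2-D1 was also 100 bases long and identical at 89 of them. A match of letters is a description of the DNA and shows no binding.

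The control library held 85794655 unique molecular identifiers (UMIs, each marking a captured RNA molecule) and the B16-F10 library 104978816. After filtering, 7830 and 7767 cells remained, with a median of 7500 and 8544 UMIs, and 19 cell barcodes occurred in both. Clusters were named from marker genes: general capillary (gCap-like, 4557 control and 4258 B16-F10 cells), aerocyte capillary (aCap-like, 1454 and 967), arterial (66 and 34), venous (294 and 286) and lymphatic ECs (LEC-like, 57 and 51). A cluster of 445 and 340 cells had as many gCap as artery markers and was left without a class. Each class carried its markers, for instance 8 of 8 for vein-like and 7 of 8 for LEC-like ECs. The gCap-like class was not made of the same clusters in both libraries: a cluster led by Lalba, Tmem252 and Adamts9 held 67 control and 1003 B16-F10 cells. Among aCap-like ECs, most B16-F10 cells (799) lay in a cluster that held 180 control cells, and most control cells (651 and 623) lay in the other two clusters.

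The first comparison asked whether class I RNA differed between the libraries in gCap-like ECs, the largest class. All 7 genes were higher in the B16-F10 library beyond counting error, by 1.16-fold to 1.66-fold. H2-K1, Tap1, Tap2 and Nlrc5 were at least 1.25-fold higher and so counted as called, whereas H2-D1, B2m and Tapbp were higher by less. Of all 13127 genes with at least 50 UMIs in gCap-like ECs, 14.8% were called higher and 19.0% lower, and the median log2 ratio over them was -0.04, against 0.47 over the 7 genes.

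Of the heavy chains, H2-K1 moved more than H2-D1. For H2-K1, 53131 UMIs were counted in control gCap-like ECs and 80819 in those of the B16-F10 library, which is 1570 and 2170 CPM (counts-per-million, relative to all UMIs of the class). Its log2 ratio was 0.47 (0.45 to 0.48). H2-D1 stood at 2200 and 2560 CPM, a log2 ratio of 0.22 (0.21 to 0.23). The ratio of H2-K1 exceeded that of H2-D1 by 0.25 (0.23 to 0.27). The cause of this difference was not tested, and reads could have been split between these 2 like genes. B2m, the light chain, stood at 1840 and 2140 CPM, a log2 ratio of 0.21 (0.20 to 0.23) that was within counting error of that of H2-D1 (difference 0.01, -0.01 to 0.03).

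Tap1, a transporter gene, had the highest ratio. It rose from 71.4 CPM (2415 UMIs) to 119 CPM (4411 UMIs), a log2 ratio of 0.73 (0.66 to 0.80). Tap2 rose from 121 to 185 CPM, at 0.61 (0.55 to 0.67), which was lower than the ratio of Tap1 by 0.12 (0.03 to 0.21). Tapbp, which holds the heavy chain at the transporter, moved less, from 173 to 207 CPM (0.26, 0.21 to 0.31). Nlrc5, the least counted of the genes with 1070 and 1751 UMIs, stood at 31.6 and 47.1 CPM, a log2 ratio of 0.57 (0.46 to 0.68).

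The direction was shared by nearly all gCap-like clusters. H2-K1, H2-D1, B2m, Tap1, Tap2 and Nlrc5 were higher in the B16-F10 cells of 5 of 5 clusters, and Tapbp in 4, with -0.12 in the cluster of the lowest UMI count. H2-K1 ranged from 0.28 to 0.62 and Tap1 from 0.47 to 1.50, both highest in the Lalba cluster, where control Tap1 rested on 29 UMIs. Without that cluster, H2-K1 stood at 0.41, Tap1 at 0.56 and Tap2 at 0.49. Nlrc5 was different, since its ratio within each cluster, from 0.02 to 0.48, was below the pooled 0.57. The lowest, in the Lalba cluster, was within counting error of 0 (-0.50 to 0.59). With each cluster given equal weight its ratio was 0.30, under the 1.25-fold needed for a call, so the pooled value depended on how the cells of each library were spread over the clusters.

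The members were also read in single cells after each cell had been thinned to 2000 UMIs, which left out 61 control and 28 B16-F10 gCap-like cells as too shallow. H2-K1, H2-D1 and B2m together gave a median of 11 UMIs per control cell, with the 10th percentile at 5 and the 90th at 18. In B16-F10 cells the median was 13, with the percentiles at 7 and 21, so the distributions overlapped widely and were shifted as a whole. At least 1 UMI of these genes was found in 99.8% of cells in both libraries. Tap1 was found in 12.1% of control (11.2 to 13.1) and 19.5% of B16-F10 gCap-like cells (18.3 to 20.8), and Nlrc5 in 5.60% (4.95 to 6.32) and 8.98% (8.14 to 9.89). Without thinning, Tap1 was found in 35.5% of control cells, whose median depth was 7256 UMIs, and in 54.7% of B16-F10 cells, whose median depth was 8423. In melanoma cells with little EC RNA (defined below), Tap1 was found in 0 of 76 thinned cells, an interval of up to 4.74%, and in 1.30% unthinned at a median of 8280 UMIs.

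The next comparison asked whether the other vessel types moved alike. In aCap-like ECs, 5 genes were called higher (H2-K1, H2-D1, Tap1, Tap2 and Nlrc5), where 17.8% of all genes were. The Tap2 call was lost when cells were thinned to 2000 UMIs, at 0.27. H2-K1 rose from 1200 to 1950 CPM, a log2 ratio of 0.70 (0.67 to 0.73), and H2-D1 from 2400 to 3150 CPM, at 0.40 (0.37 to 0.42). Tap1 rose from 58.6 to 125 CPM, at 1.10 (0.97 to 1.23), or 2.14-fold. These 3 ratios exceeded those of gCap-like ECs, by 0.23 for H2-K1 (0.20 to 0.26), 0.18 for H2-D1 (0.15 to 0.20) and 0.36 for Tap1 (0.22 to 0.51). B2m exceeded its gCap-like ratio by only 0.04 (0.02 to 0.07), at 0.26. With no maximum of genes it did not, at 0.17 against 0.20 in gCap-like ECs. For Tap2 (0.50), Tapbp (0.19) and Nlrc5 (0.54) the difference from gCap-like ECs was within counting error, with intervals from -0.22 to 0.01, from -0.17 to 0.02 and from -0.24 to 0.17. Each of the 7 genes had a positive ratio in all 3 aCap-like clusters, H2-K1 between 0.53 and 0.85 and Tap1 between 0.96 and 1.76. Tapbp was within counting error of 0 in 1 of them (0.08, -0.23 to 0.37). Within the 3 clusters, Tap2 lay between 0.51 and 0.88, above its pooled 0.50. Nlrc5 lay between 0.53 and 1.39, so its pooled 0.54 was near the lowest cluster. Within gCap-like clusters Nlrc5 lay between 0.02 and 0.48. The pooled Nlrc5 difference between these classes thus depended on how cells were spread over the clusters.

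**Figure D1:**
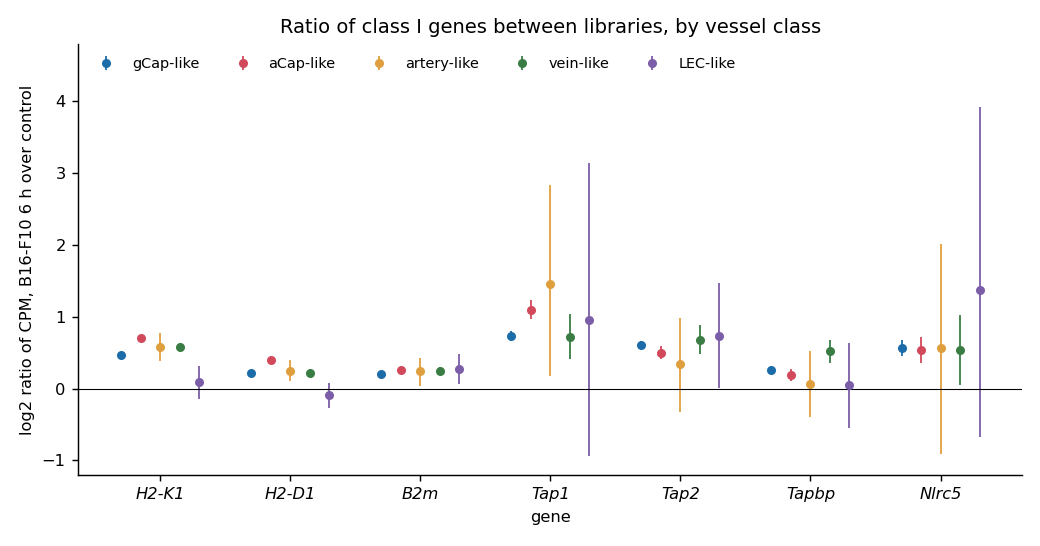
Log2 ratio of CPM of each gene in the B16-F10 6 h library over the control library (y axis), by vessel class (colour). Points are ratios of UMIs summed over the cells of a class and bars are exact 95% counting intervals. H2-K1 lies between 0.47 and 0.70 in the 4 blood vessel classes and at 0.09 in LEC-like ECs, and the artery-like and LEC-like intervals are wide for Tap1 and Nlrc5.

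In vein-like ECs, 5 genes were called higher (H2-K1, Tap1, Tap2, Tapbp and Nlrc5), where 8.67% of all genes were. H2-K1 rose from 1150 to 1720 CPM, at 0.58 (0.52 to 0.64), which was 0.11 above its ratio in gCap-like ECs (0.05 to 0.18), and Tap2 from 101 to 162 CPM, at 0.68 (0.48 to 0.89). Tapbp rose from 163 to 233 CPM, at 0.52 (0.35 to 0.68), which was 0.25 above its ratio in gCap-like ECs (0.08 to 0.42). When cells were thinned to 2000 UMIs, this gap was smaller, at 0.37 in vein-like and 0.29 in gCap-like ECs. Free RNA made up an estimated 0.967% of the UMIs of vein-like ECs in control and 7.14% in the B16-F10 library, and it would supply 13.3 of the 233 CPM of Tapbp. After its subtraction, no ratio of the 7 genes in any vessel class left its interval.

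Few cells stood behind the other classes. In artery-like ECs, 5 genes reached 50 UMIs, and H2-K1 was called higher, where 9.26% of all genes were. H2-K1 rose from 842 to 1260 CPM there, at 0.58 (0.38 to 0.78), and H2-D1 from 1730 to 2060 CPM, at 0.25 (0.10 to 0.40). Tap1 rested on 9 and 15 UMIs (1.46, 0.17 to 2.83) and Nlrc5 on 10 and 9 (0.57, -0.91 to 2.02). None of the 7 ratios of artery-like ECs differed from that of gCap-like ECs beyond counting error. In the cluster with as many gCap as artery markers, H2-K1 (0.58), Tap1 (0.84) and Tap2 (0.65) were called higher, where 17.6% of all genes were, while Nlrc5 was at -0.06 (-0.52 to 0.40).

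LEC-like ECs stood apart. For H2-K1, 294 control and 322 B16-F10 UMIs were counted, at 628 and 669 CPM, and its log2 ratio of 0.09 (-0.14 to 0.32) was 0.38 below that of gCap-like ECs (-0.61 to -0.15). H2-D1 stood at 1140 and 1070 CPM, a log2 ratio of -0.09 (-0.27 to 0.08), which was 0.31 below (-0.49 to -0.14). B2m was at 741 and 893 CPM, and its ratio of 0.27 (0.06 to 0.48) was close to that of the other classes. Among the 5 genes with 50 UMIs, Tap2 was called higher, from 57.7 to 95.6 CPM (0.73, 0.01 to 1.47), where 9.13% of all genes were. Tap1, with 4 and 8 UMIs, and Nlrc5, with 3 and 8, were too rarely counted for a statement. With called doublets kept among the vessel classes, H2-K1 stood at 0.39 and H2-D1 at 0.19 in LEC-like ECs. In gCap-like ECs they were at 0.48 and 0.23 in that setting, so the gaps were smaller with doublets kept. When cells were thinned to 2000 UMIs, H2-D1 in LEC-like ECs stood at -0.39, below its interval. The distance of LEC-like ECs from gCap-like ECs thus depended on the processing.

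The level of class I RNA also differed by vessel type within a library. In control, H2-K1 was highest in gCap-like ECs (1570 CPM), followed by aCap-like (1200), vein-like (1150), artery-like (842) and LEC-like ECs (628), and each neighbouring pair differed beyond counting error. H2-D1 and B2m were instead highest in aCap-like ECs, at 2400 and 2230 CPM, ahead of gCap-like ECs by 0.12 (0.10 to 0.14) and 0.28 (0.26 to 0.30) on the log2 scale. LEC-like ECs had the lowest value for all 7 genes in both libraries, but the gap to the next class was within counting error for Tap1 in control and for Tap2 and Nlrc5 in both libraries. For H2-D1, vein-like (1770 CPM) and artery-like ECs (1730) did not differ beyond counting error (log2 difference 0.03, -0.07 to 0.14).

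The genes of the loading machinery followed a similar order with more ties. Tap1 fell from 71.4 CPM in gCap-like to 58.6 in aCap-like, 43.6 in vein-like, 17.5 in artery-like and 8.54 in LEC-like control ECs, and the last pair did not differ beyond counting error. Tap2 was at 121 CPM in gCap-like and 115 in aCap-like ECs, within counting error (0.07, -0.02 to 0.16). Tapbp varied least among blood vessels, between 163 CPM in vein-like and 203 in artery-like ECs, and was at 105 in LEC-like ECs. Nlrc5 was highest in aCap-like ECs, at 36.4 CPM, ahead of 31.6 in gCap-like ECs (0.20, 0.04 to 0.36). In the B16-F10 library, H2-K1, H2-D1 and B2m kept the class that was highest, while Tap1 in aCap-like (125 CPM) and gCap-like ECs (119) no longer differed beyond counting error (0.08, -0.01 to 0.17).

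**Figure D2:**
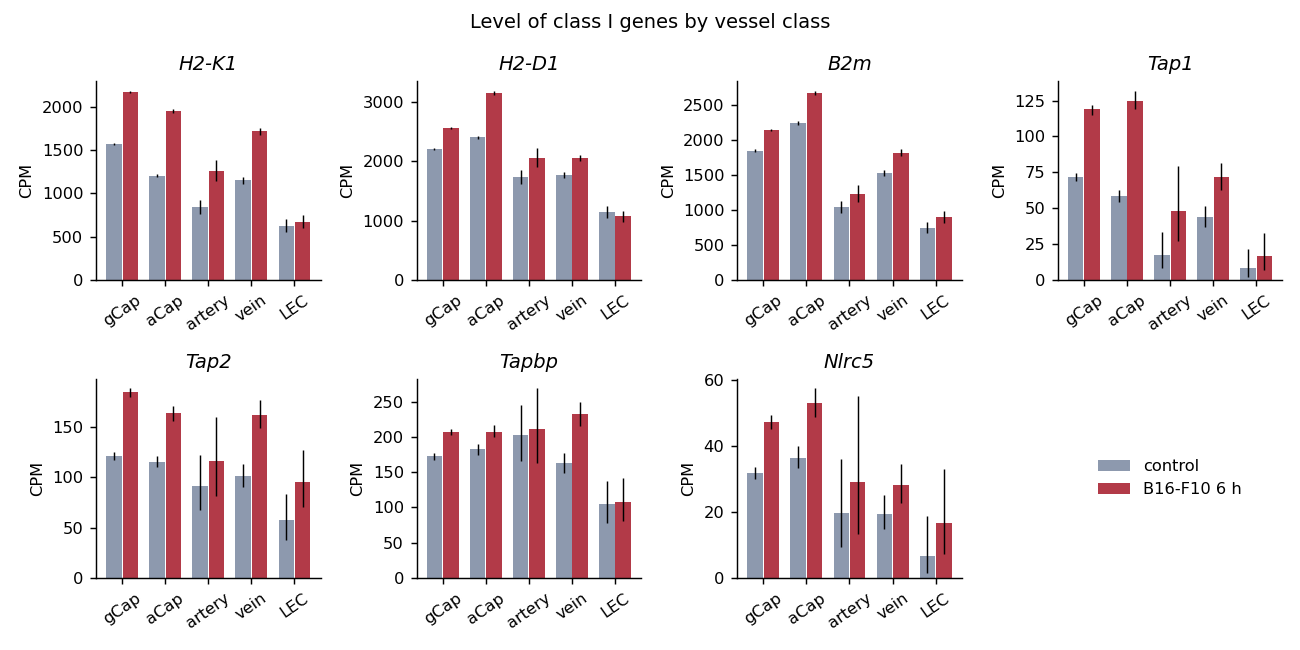
Level of each gene in CPM (y axis, from 0, with its own scale per panel) in the 5 vessel classes of the control (grey) and B16-F10 6 h (red) libraries. Bars are UMIs summed over a class and lines are exact 95% Poisson intervals; H2-K1 runs from 628 CPM in LEC-like control ECs to 2170 in gCap-like ECs after B16-F10 injection.

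Among the 5 genes whose log2 CPM over the 10 combinations of class and library was most like that of H2-K1, H2-D1 and B2m together, of 2692 genes, were Txn1 (thioredoxin, Pearson's r 0.987), the ubiquitin-conjugating enzyme gene Ube2s (0.976), the mitochondrial channel gene Vdac3 (0.969) and Clic4 (0.969). Irf1, a transcription factor of class I genes, came next (0.967), and Tap2 ranked 71 (0.883) and Tapbp 194 (0.802). The points share libraries and differ in depth, so these values are descriptions. Clic4 and Txn1 had gCap-like log2 ratios of 0.74 and 0.38.

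The rest of the pathway was read from 4 lists of 42 genes, of which 39 reached 50 UMIs in gCap-like ECs. Of these, 16 were called higher and 2 lower, where 14.8% and 19.0% of all genes were, with a median log2 ratio of 0.21 against -0.04 over all genes. The immunoproteasome list, which makes peptides fit for class I, moved as a block: Psmb8 (205 to 333 CPM, 0.70), Psme2 (0.61), Psmb10 (0.60), Psmb9 (0.45) and Psme1 (0.44) were all called higher, 5 of 5, against 14.8% of all genes. Psmb8, Psmb9 and Psmb10 are its catalytic subunits, and Psme1 and Psme2 form the activator cap.

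Other heavy chains were split. Of 11 measured, 5 were called higher and 1 lower (all genes 14.8% and 19.0%), with a median of 0.07. H2-Q10 (0.85, from 70 to 139 UMIs), H2-Q7 (0.52, from 431 to 618 CPM) and H2-Q6 (0.48) rose most. H2-Q6 and H2-Q7 are nearly identical, so their reads could not be told apart with certainty. Mr1, which presents metabolites to MAIT cells, was called lower, from 15.1 to 10.1 CPM (-0.58, -0.77 to -0.38). H2-T24 (-0.29) and Cd1d1 (-0.26), a lipid-presenting molecule, were lower by less than 1.25-fold. H2-M3, whose promoter holds the searched letters, was at 0.07 (-0.03 to 0.17).

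The peptide loading list gave 3 of 8 called higher and none lower (all genes 14.8% and 19.0%), with a median of 0.21. Tapbpl, a tapasin homologue, rose from 69.1 to 92.7 CPM (0.42), and the endoplasmic reticulum chaperones Calr and Hspa5 both had 0.38. Uggt1 (-0.03), Ganab (0.05) and Pdia3 (0.11) were lowest. Of 15 regulators, 3 were called higher and 1 lower, with a median of 0.18, and the share called higher was near the 14.8% of all genes (19.0% were called lower). The kinases Jak2 (57.4 to 92.2 CPM, 0.68) and Jak1 (0.40) and the NF-kB subunit Rela (0.48) rose, and Nfyc, a subunit of the factor that binds ATTGG, was lower (-0.34, -0.44 to -0.23). Rfxap was at -0.11 and Ifngr2, a chain of the interferon gamma receptor, at -0.21 (-0.27 to -0.14). Irf1 (0.30) was higher by less than 1.25-fold.

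MHC class II genes, which present peptides to CD4 T cells and are regulated by Ciita, a relative of Nlrc5, were called higher in 7 of 7 cases (all genes 14.8%), with a median of 0.60. Ciita rose from 10.3 to 20.1 CPM (0.96, 0.77 to 1.14), H2-DMb1 from 14.8 to 26.2 (0.83) and H2-Aa from 61.9 to 105 (0.76), while H2-Ab1 had the smallest ratio (0.52). Myeloid cells carry class II, and the summed macrophage and monocyte markers rose with it in gCap-like ECs, from 16.7 CPM (15.4 to 18.1) to 32.1 (30.3 to 34.0), with all 6 markers detected in both libraries. Neutrophil markers rose from 2.60 to 8.01 CPM, mural markers from 17.6 to 30.5 and melanoma markers from 0.858 to 32.8. The dendritic list, 4 of 5 markers of which were detected in control, fell from 68.1 to 45.7. In aCap-like ECs it stood at 29.2 and 33.0 CPM. In the gCap-like clusters other than the Lalba cluster, 1 of its 5 markers was raised above the other clusters. Its fall can therefore not be read as a loss of dendritic cell RNA. B cell (1.98 and 2.18 CPM) and T or NK cell markers (0.946 and 1.51) were rare in both libraries. The part of these cells in the class I and class II values was not tested. Of the ligands of immune receptors, Cd274 (PD-L1) rose from 14.9 to 25.4 CPM (0.77, 0.61 to 0.93) and Ulbp1 was at 0.22 (-0.09 to 0.53). Over the 2238 control and 1345 B16-F10 gCap-like cells without any UMI of platelet, mural, leukocyte or melanoma markers, Nlrc5 stood at 0.42 and Tapbp at 0.17, and the other 5 genes stayed within their intervals. The leukocyte markers here include the dendritic list, so this filter also removed gCap-like cells that held its raised marker.

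In aCap-like ECs the same 4 lists gave 16 genes higher and 3 lower of 38, with a median of 0.17 against 0.01 over all genes, of which 17.8% were called higher. The immunoproteasome list again gave 5 of 5, with a median of 0.74. In vein-like ECs 15 of 38 were higher, against 8.67% of all genes, and 1 lower (median 0.26, immunoproteasome 5 of 5). In LEC-like ECs 3 of 19 were higher, against 9.13% of all genes, and 3 lower (median 0.11, immunoproteasome 0 of 4). The share of all genes called lower was taken only in gCap-like ECs. The lower counts of these other classes can therefore not be set against a share and are not read as a result.

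Class I genes respond to interferon, so the gCap-like cells were also grouped by an interferon score, the summed UMIs of 11 interferon-induced genes such as Ifit1 and Isg15 among 2000 UMIs per cell. Of the score genes, 3 of 11 were called higher and 1 lower (all genes 14.8% and 19.0%), with a median of 0.17. Isg15 (0.59), Irf7 (0.39) and Rtp4 (0.35) had the highest ratios, and Cmpk2 (-0.45), Rsad2 (-0.28) and Ifit3b (-0.12) the lowest. In aCap-like ECs 8 of 11 were called higher (all genes 17.8%), with a median of 0.48. Cells with a score of 0 made up 53.2% of control and 47.4% of B16-F10 cells, and those with 6 or more 6.52% and 8.61%. From the lowest to the highest group, the summed level of H2-K1, H2-D1 and B2m went from 5420 to 6310 CPM in control, a log2 difference of 0.22, and from 6570 to 7940 CPM in the B16-F10 library, a log2 difference of 0.27. For this sum, the B16-F10 library was higher in each group. In cells with a score of 0 the log2 ratio was 0.28 (0.25 to 0.30), and in cells with 6 or more it was 0.33 (0.27 to 0.39). In the cells with a score of 0, Tap1 stood at 53.3 and 94.2 CPM (0.82, 0.59 to 1.06) and Nlrc5 at 20.1 and 37.9 CPM (0.92, 0.54 to 1.30). The ratio of Nlrc5 was 0.82 (0.41 to 1.23) at a score of 1 to 2. At 3 to 5 it was -0.10 (-0.68 to 0.49) and at 6 or more 0.48 (-0.03 to 1.00), both within counting error of 0. The score correlated weakly with the summed class I UMIs over cells of a library (Spearman's rho 0.10 over 4496 control and 0.14 over 4230 B16-F10 cells), a description of sparse counts.

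A reactive score was formed likewise from 12 genes, among them Pim3 and Bcl3, which the study names as markers of reactive capillaries partly from these libraries. All 12 were called higher in this class (14.8% of all genes were), with a median of 2.01. In the B16-F10 library the summed level of H2-K1, H2-D1 and B2m was 6950 CPM in cells with a score of 0 to 2, 6760 at 3 to 5, 6860 at 6 to 10 and 7180 at 11 or more, and rho was 0.02. Over the same groups Tap1 stood at 104, 107, 122 and 153 CPM, and Nlrc5 at 40.5, 52.1, 43.6 and 76.0 CPM. H2-K1 stood at 2180 CPM in the lowest and 2360 in the highest group. In cells with a score of 0 to 2, which were 77.3% of control and 30.1% of B16-F10 cells, the summed genes had a log2 ratio of 0.31 (0.28 to 0.34). The highest group held 12 control cells.

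**Figure D3:**
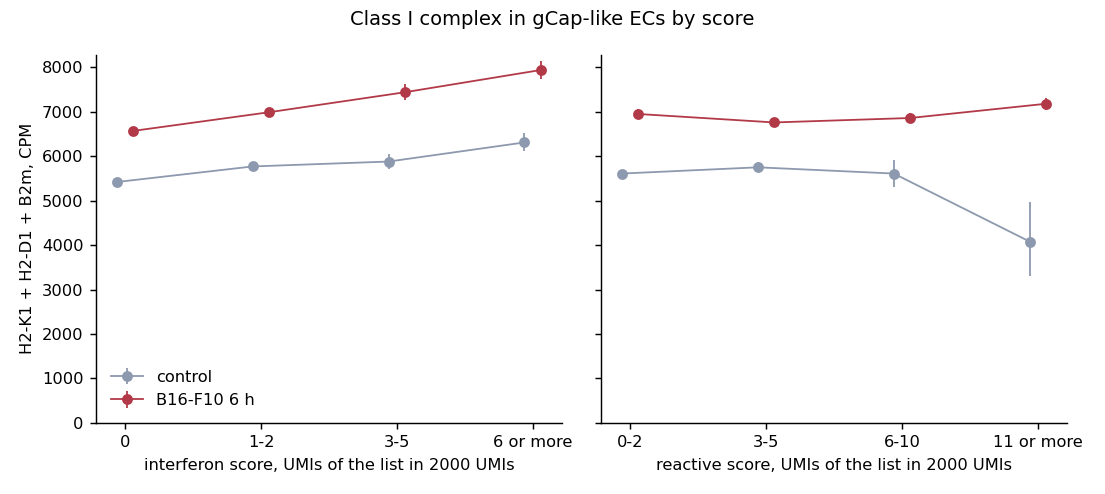
Summed level of H2-K1, H2-D1 and B2m in gCap-like ECs (CPM, y axis from 0) by interferon score (left) and reactive score (right), in UMIs of the score genes per 2000 UMIs (x axis), for the control (grey) and B16-F10 6 h (red) libraries. Points are sums over cells and bars are exact 95% Poisson intervals; the B16-F10 level lies above the control in each group, and the last reactive group holds 12 control cells.

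The last comparison set the melanoma cells against the gCap-like ECs of the same library. Melanoma cells were defined by at least 20 UMIs of Pmel, Mlana, Dct and Tyrp1 together, which gave 86 cells in the B16-F10 library and 0 in control. The lowest of them had 27 such UMIs and the highest cell outside the limit had 17. Summed over these cells, there were 270 CPM of H2-K1 (238 to 305), 475 of H2-D1 (432 to 520) and 788 of B2m (733 to 846). Against gCap-like ECs this was 8.06-fold, 5.40-fold and 2.71-fold lower. Of the 7 genes, 6 (all but B2m) were called at least 4-fold lower, where 25.4% of 12126 genes were. Relative to the median log2 ratio of all genes, -0.95, H2-K1 (-2.06) was the only gene still at least 4-fold lower, and the calls of H2-D1 (-1.48), Tap1 (-1.56), Tap2 (-1.76), Tapbp (-1.43) and Nlrc5 (-1.38) were lost. The Nlrc5 call was also lost with no maximum of genes (-1.52).

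A small number of melanoma cells carried much EC RNA. In 9 cells there were 16 to 121 UMIs of the EC genes Pecam1, Cdh5, Cldn5 and Tie1, at 78.2% of the level of these genes in gCap-like ECs, whereas the other 77 cells had 0 to 8, at 1.82%. The limit of 10 UMIs between them was set after seeing these values. Of the 9 cells, 5 had been called doublets, against 3 of the 77, and their median UMI count was 16180, against 8280. They held 192 of the 259 H2-K1 UMIs and 267 of the 456 H2-D1 UMIs of all melanoma cells. H2-K1 and H2-D1 together ran from 1670 to 6760 CPM of the single cell in these 9 cells and from 0 to 1460 in the 77, so the groups did not overlap. In gCap-like ECs the 10th and 90th percentiles over cells were 2660 and 7040.

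**Figure D4:**
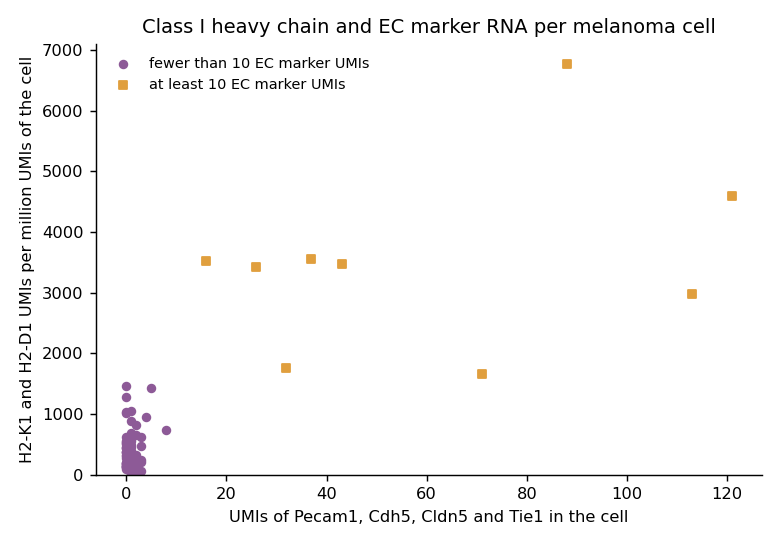
H2-K1 and H2-D1 level of a cell in CPM (y axis) against the UMIs of 4 EC marker genes in that cell (x axis), for the 86 melanoma cells of the B16-F10 6 h library, 1 point per cell. The 77 cells with fewer than 10 EC marker UMIs (purple circles) lie at or below 1460 CPM, and the 9 cells with at least 10 (orange squares) lie between 1670 and 6760.

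In the 77 cells with little EC RNA, class I RNA was scarce except for B2m. H2-K1 had 67 UMIs, at 80.5 CPM (62.4 to 102), 27.0-fold below gCap-like ECs. H2-D1 had 189 UMIs, at 227 CPM (196 to 262), or 11.3-fold lower, and B2m 528 UMIs, at 634 CPM (581 to 691), or 3.37-fold lower. The EC RNA in these cells would supply 39.7, 46.8 and 39.0 CPM of the 3 genes. By that measure, about as much H2-K1 was seen in excess of it as it supplied, while most H2-D1 and B2m lay above it. Free RNA, estimated at 5.32% of UMIs over all 86 melanoma cells, would supply 98.4, 117 and 125 CPM. That exceeds the 80.5 CPM of H2-K1, which could thus not be set apart from free RNA. The share was not estimated for the 77 cells alone. In the 29 melanoma cells without any EC marker UMI, H2-K1 stood at 81.1 CPM (51.4 to 122), H2-D1 at 293 (233 to 363) and B2m at 546 (464 to 639).

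The loading machinery was rarer still. Tap1 had 1 UMI in the 77 cells, at 1.20 CPM (0.0304 to 6.69), where EC RNA would supply 2.16, against 119 CPM in gCap-like ECs (log2 ratio -6.63, -11.93 to -4.15). Nlrc5 had 2 UMIs, at 2.40 CPM (0.291 to 8.68), against 47.1 (log2 ratio -4.29, -7.34 to -2.44). Tap2, with 11 UMIs, was at 13.2 CPM (6.60 to 23.6), 14.0-fold lower, and Tapbp, with 18, at 21.6 CPM (12.8 to 34.2), 9.58-fold lower. By the free RNA estimate over all melanoma cells, 5.28 CPM of Tap1, 1.22 of Nlrc5, 8.29 of Tap2 and 9.90 of Tapbp would be supplied. The median log2 ratio of all genes between these 77 cells and gCap-like ECs was -1.02, which shifts every value. Relative to it, H2-K1 stood at -3.73, H2-D1 at -2.48, B2m at -0.73, Tap2 at -2.79 and Tapbp at -2.24.

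The rest of the pathway was uneven in the 77 cells. The immunoproteasome subunits Psmb8 (7 UMIs, 8.41 CPM against 333) and Psmb9 (2 UMIs, 2.40 CPM against 187) were near the level that EC RNA would supply (6.07 and 3.41 CPM), while Psmb10 (30 UMIs, log2 ratio -2.60) and the activator genes Psme1 (102 CPM against 312) and Psme2 (48.1 against 203) were well above it. The interferon regulatory factors Irf1 (6.01 CPM against 218) and Irf2 (13.2 against 442) and the receptor chain Ifngr1 (3.60 against 221) were low as well. The peptide loading list was split. Its members Hspa5 (1160 CPM against 201), Calr (655 against 171), Pdia3 (574 against 235) and Canx (428 against 209) were higher in melanoma cells than in gCap-like ECs, with log2 ratios from 1.03 to 2.53. Its other members were at -0.54 (Ganab, -1.16 to 0.02), -1.12 (Uggt1), -3.46 (Tapbpl) and -3.74 (Erap1). The genes of this paragraph were named after their values were seen. The melanoma cells had been cultured before injection, and no melanoma cell outside a lung was measured here.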

How the data were processed

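Per the labels, 10x libraries of sorted lung cells were made, and the authors deposited raw UMI counts per gene and barcode for all barcodes, without normalization. The processing notes of the submitters name Cell Ranger 7.2.0 and Seurat 4.4.0 and the mm10 build; the paper gives an earlier Cell Ranger. Whether intronic reads were counted is not given in the sources used here. A cell was kept if it had 1000 to 5000 genes and less than 20% of its UMIs from mitochondrial genes (8394 control, 8321 B16-F10), and 564 and 554 doublets were called with Scrublet (scanpy 1.11.5) and removed, except among melanoma cells. Cells were clustered with leidenalg 0.10.2 at resolution 0.8 on 2950 variable genes, without the genes of the pathway, interferon and reactive lists, into 25 clusters, which were named from markers. Clusters with markers of other cells were left out of the ECs. UMIs were summed per class and library as CPM, with exact Poisson, conditional binomial and Clopper-Pearson intervals. A gene was called at 50 UMIs, 1.25-fold (4-fold for melanoma cells) and an interval excluding 0. Intervals of differences between log2 ratios used a normal approximation to the counts. The free RNA profile came from barcodes with 1 to 100 UMIs and its share from erythroid and epithelial genes. The genes named are the 7 of interest, from each list up to 3 with the highest and lowest ratio in gCap-like ECs, and the 5 with the most like pattern; others were chosen after their values were seen, and some genes that entered the counts are not reported here by name. The genes of interest and the lists were chosen with earlier results of these data known. The promoter motifs, the limit of 10 EC marker UMIs and 3 alternatives were added after the data were seen. Scripts were tested on simulated data.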

Additional observations from a re-analysis of the deposited data

Results flagged for a closer look

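For H2-D1 and Nlrc5, the log2 ratio between libraries differed from that of gCap-like ECs beyond counting error and had a negative value that was itself within counting error of 0. H2-D1 had a log2 ratio of -0.09 (-0.27 to 0.08) in LEC-like ECs, against 0.22 in gCap-like ECs. In LEC-like ECs it was 0.19 with doublets kept and -0.39 with cells thinned to 2000 UMIs. Nlrc5 had a log2 ratio of -0.06 (-0.52 to 0.40) in the cluster with as many gCap as artery markers, against 0.57 in gCap-like ECs. These intervals cover counting error only, the difference between groups was not tested over replicates, and the causes were not tested.

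H2-K1 was also found in barcodes that entered no comparison. In barcodes with 1 to 100 UMIs it had 1850 CPM in the B16-F10 6 h library, above the 1520 CPM of the control library.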

How the results depend on the processing

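No paired analysis was possible because there was just 1 library in each group. Of 113 alternative values of the 7 ratios and of the pathway median in gCap-like ECs, 88 stayed within the counting interval and 25 moved outside it, with no change of sign. Of 76 melanoma values 38 moved, and of 196 in the other vessel classes 22 moved, none with a called sign reversed. The pathway median ranged from 0.18 to 0.26 and stayed within its interval. Depth limits LEC-like and artery-like ECs, where Tap1 and Nlrc5 rest on 15 UMIs or fewer per library. The cause of the moves was not tested except where fewer cells enter by construction.

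In gCap-like ECs, summing all ECs gave H2-K1 0.54, H2-D1 0.26 and Tap1 0.81. Thinning to 2000 UMIs gave H2-K1 0.45, B2m 0.24 and Nlrc5 0.73. Cells without other markers gave Tapbp 0.17 and Nlrc5 0.42. Leaving out clusters of low UMI or gene counts gave H2-K1 0.45, H2-D1 0.19, B2m 0.18 and Nlrc5 0.69. Subtracting the median log2 ratio over genes gave H2-K1 0.51, H2-D1 0.26 and B2m 0.25. The next settings were added after seeing the data. Equal weight per cluster gave H2-K1 0.44, B2m 0.15, Tapbp 0.19 and Nlrc5 0.30. Leaving out the cluster richest in B16-F10 cells gave H2-K1 0.41, H2-D1 0.20, B2m 0.19, Tap1 0.56, Tap2 0.49 and Nlrc5 0.45.

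For melanoma cells over gCap-like ECs (main log2 ratios H2-K1 -3.01, H2-D1 -2.43, B2m -1.44, Tap1 -2.51, Tap2 -2.72, Tapbp -2.39, Nlrc5 -2.33), a limit of 10 pigment UMIs gave H2-K1 -2.70 and H2-D1 -2.29, and a limit of 50 gave -3.48 and -2.74. Thinning gave H2-K1 -3.38, H2-D1 -2.74 and Tap1 -3.33. Leaving out called doublets gave H2-K1 -3.50, H2-D1 -2.81, B2m -1.57, Tap1 -3.67 and Tap2 -3.44. Subtracting free RNA gave H2-K1 -3.60, H2-D1 -2.77 and B2m -1.61. With no maximum of genes, H2-K1 was -3.36, H2-D1 -2.91 and B2m -1.92, and under 10% mitochondrial UMIs H2-K1 was -2.78. Scaling by the median ratio, -0.95, gave H2-K1 -2.06, H2-D1 -1.48, B2m -0.49, Tap1 -1.56, Tap2 -1.76, Tapbp -1.43 and Nlrc5 -1.38. Cells without an EC marker UMI gave H2-K1 -4.74, H2-D1 -3.13, B2m -1.97, Tap1 -5.07 and Nlrc5 -3.74, and Tap2 gave no ratio, with 0 UMIs. Cells with fewer than 10, added after seeing the data, gave H2-K1 -4.76, H2-D1 -3.50, B2m -1.75, Tap1 -6.63, Tap2 -3.81, Tapbp -3.26 and Nlrc5 -4.29.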

Other observations

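The unnamed EC cluster led by Csf2, Sox9 and Fosl1 held 8 control and 305 B16-F10 cells. Its B16-F10 cells had 2120 CPM of H2-K1 and 2400 of H2-D1, beside 2170 and 2560 CPM in gCap-like ECs of that library. Tap1 stood at 68.2 CPM there, against 119 in gCap-like ECs, and Nlrc5 at 52.3 CPM.

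Among the clusters that met the EC rule together with markers of another cell type, the ratio of H2-K1 was highest in the cluster with epithelial markers (583 to 1270 CPM, log2 ratio 1.13, 0.90 to 1.36) and in the cluster with mural and fibroblast markers (630 to 1320 CPM, 1.07, 0.87 to 1.27). In the clusters of ECs with platelet markers and with mural markers it was 0.46 and 0.37, near the 0.47 of gCap-like ECs. Of the few leukocytes left after the sort, 8 control and 38 B16-F10 B cell-like cells had 813 (607 to 1070) and 942 CPM (827 to 1070) of H2-K1. In T/NK-like cells (8 and 29) it was at 2130 CPM (1810 to 2500) and 1680 (1520 to 1850), in macrophage/monocyte-like cells (5 and 35) at 985 (798 to 1200) and 754 (684 to 830), and in neutrophil-like cells (3 and 19) at 330 (121 to 719) and 450 (344 to 577).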
